A study of Mus musculus with 15 samples.

Results

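The potassium channel genes described here are the 92 genes of the count tables whose mouse symbol starts with Kcn, out of 21889 genes in the tables, 20358 of which could be matched to a symbol by Ensembl identifier. The symbol covers pore-forming subunits of potassium channels and the auxiliary subunits that bind to them, and the rule uses the symbol alone, though the set was chosen with earlier results of these data known. Poly(A) RNA was sequenced from Percoll-purified cells of mouse cerebellum in 15 libraries, 3 in each of 5 groups. Cells labelled as granule neuron precursors, the dividing cells that become cerebellar granule neurons, came from wild-type animals at P1, P7 and P14. The name precursor follows that label throughout, also at P14, where the mature granule neuron markers Gabra6 and Cbln3 were highest. The E15.5 precursors carried Math1-GFP as their genotype label. Medulloblastoma cells (MB), from a tumour of the cerebellum, came from Ptch1 heterozygous animals with no age given. Age and the Math1-GFP genotype change together between E15.5 and P1 and cannot be told apart. The labels do not say whether the 3 libraries of a group came from separate animals or pools, so the p-values measure the spread between these libraries, which may be technical.

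Potassium channels let potassium leave the cell, which sets the resting potential, ends action potentials and controls how often a neuron fires. Voltage-gated channels (Kv) open on depolarization, inward rectifiers hold the resting potential and are abundant in glia, two-pore channels carry leak currents, and calcium- or sodium-activated channels respond to ions that enter during firing. Maturing cerebellar granule neurons are known to gain an A-type current carried by Kv4 channels and a standing leak current carried by acid-sensitive two-pore channels. By family, the 92 genes comprise 8 of the Kv1 family, 12 of Kv2 with its silent modifiers, 4 of Kv3, 7 of Kv4 with the KChIP subunits, 5 of Kv7 and 8 ether-a-go-go channels. There are also 12 calcium- or sodium-activated channels and their subunits, 14 inward rectifiers, 14 two-pore channels, 7 beta and MinK-related subunits, and Kcnrg, a cytoplasmic regulator. Kcnab2 and Kcnj11 were not analysed here.

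Libraries held 12597472 to 43443132 counts in genes. Of these, the Kcn genes together took 0.111% to 0.183% in the E15.5 libraries, 0.160% to 0.239% in P1 and 0.200% to 0.228% in P7. The P14 libraries gave 0.270% to 0.293% and MB 0.0965% to 0.126%. The shares at P14 lay above those of every other library, and the MB shares overlapped only with the lowest E15.5 library. The granule lineage marker Atoh1 was present in all 15 libraries, at 10.9 to 138 CPM (counts scaled to library size by TMM) in precursors and 236 to 322 CPM in MB. Its mean was lower at each later age, at 129, 47.7, 30.6 and 11.9 CPM at E15.5, P1, P7 and P14. Markers of other cells were present too. The summed level of 10 oligodendrocyte lineage markers was 96.5 to 121 CPM in the E15.5 libraries and 642, 1084 and 4300 CPM in P1 replicates 1 to 3. The same sum was 1089 to 2182 CPM in P7, 6669 to 7201 CPM in P14 and 680 to 974 CPM in MB. The library labelled P1 replicate 3 stood apart from the other P1 libraries in this list and in Kcn genes, so fold changes of Kcn genes that use P1 are given with and without it, and a value without it that has no p beside it was called too. It was singled out after its values were seen, those of Kcn genes included, so calls and adjusted p-values without it are descriptive only. P1 replicate 1 stood apart in another list: its 5 choroid plexus markers summed to 388 CPM, against 11146 and 5064 CPM in P1 replicates 2 and 3. Libraries also fell into 2 counting sets, told apart by the share of counts listed for the gene Tsnax: E15.5 replicates 1 and 3, the P7 libraries and MB replicate 1 form one set and the other libraries the second. Within 1 set, E15.5 replicate 2 alone is compared with P1 and MB replicate 1 alone with P7, and the spread is then taken from the other groups. In bulk libraries, fewer cells of a type and less RNA per cell cannot be told apart.

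After the filter on low counts, 83 of the 92 genes were tested among 15259 genes with edgeR's quasi-likelihood test at a Benjamini-Hochberg adjusted p under 0.05. Values after ± are SDs over the 3 libraries of a group (n = 3), FPKM is CPM per kilobase of exons, and SE is the standard error of a log2 fold change. The 9 others (Kcna10, Kcna7, Kcne3, Kcng3, Kcnj1, Kcnk15, Kcnk16, Kcnk18 and Kcnmb3) had at most 12 counts in any library. Any difference among the 4 ages was called in 60 of the 83, where 55.7% of all genes tested were called. Of these 60, 30 had their highest mean at P14, 15 at E15.5, 8 at P1 and 7 at P7. Group means rose at each step from E15.5 to P14 in 13 of them, among them Kcna1, Kcna2, Kcnd2, Kcng4, Kcnh1, Kcnip3, Kcnj10, Kcnj4, Kcnj9, Kcnk1, Kcnk2 and Kcnn2. Means fell at each step in 5, namely Kcnd3, Kcnf1, Kcnh4, Kcnh5 and Kcnj5. These means include the library labelled P1 replicate 3. Without it, the P1 means of Kcnj9 and Kcnk1 were below those at E15.5, and the first step of Kcna1 was a log2 fold change of 0.07 (adjusted p = 0.914), which was not called. Shares of all genes with these patterns were not counted.

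**Figure D1:**
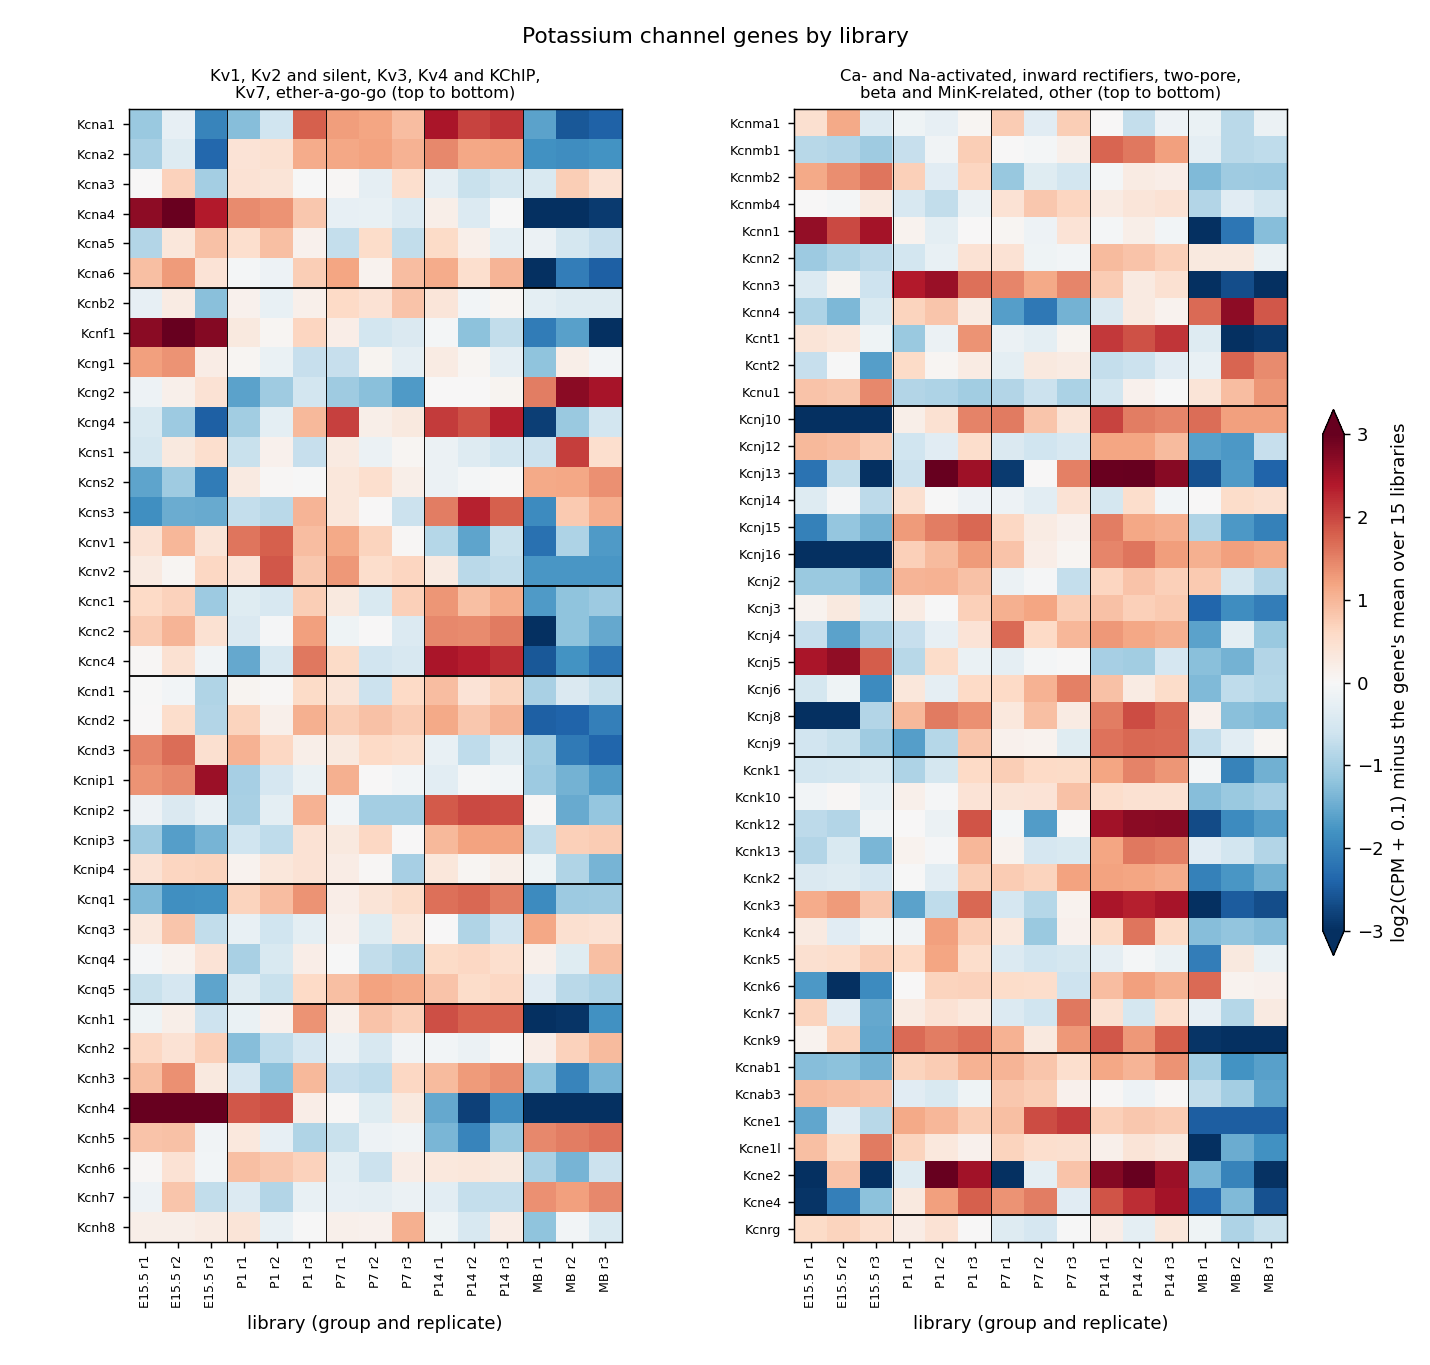
Potassium channel genes (80 of the 83 tested, rows, by family) in 15 libraries (columns, 3 per group), coloured by log2(CPM + 0.1) minus the mean of the gene over all libraries, with colours ending 3 below and 3 above that mean. Kcnh4, Kcnf1 and Kcnn1 are highest in the 3 E15.5 libraries, Kcnk12, Kcnk3 and Kcnt1 in the 3 P14 libraries, and Kcnh5 and Kcnh7 in the 3 MB libraries.

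Between E15.5 and P1, 28 Kcn genes were called higher and 15 lower, against 25.4% of all genes higher and 20.9% lower. The median log2 fold change was 0.45 over the 83 genes and 0.03 over all genes tested. Without the library labelled P1 replicate 3, 19 were called higher and 16 lower, against 22.5% and 17.6% of all genes. The higher calls that held under all 13 alternative settings were Kcnab1, Kcne4, Kcnj10, Kcnj15, Kcnj16, Kcnj2, Kcnj8, Kcnk6, Kcnn3, Kcnn4, Kcnq1 and Kcns2. The lower calls that did so were Kcna4, Kcnab3, Kcnf1, Kcnh2, Kcnh4, Kcnip1, Kcnj5, Kcnn1 and Kcnu1. Within 1 counting set 13 were called higher, where 16.8% of all genes were, and without E15.5 replicate 3, 17 were, where 20.8% of all genes were. Without P1 replicate 2, 9 were called lower, where 15.4% of all genes were. Over this step 5 of 5 GABAergic interneuron markers were lower too, with summed levels of 441 to 622 CPM at E15.5 and 154 to 201 CPM at P1. Of 8 granule lineage markers, 1 was called lower and 2 higher. Other lists rose: 10 of 10 oligodendrocyte lineage, 7 of 7 astroglial, 4 of 4 pericyte and 5 of 5 choroid plexus markers were called higher. So were 8 of 9 microglial, 2 of 6 Purkinje cell and 7 of 7 endothelial markers, the last with sums of 10.9 to 32.9 CPM at E15.5 and 389 to 593 CPM at P1. The part of interneurons and other cells in the lower and the higher Kcn levels at P1 was not tested.

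Between P1 and P7, 1 gene was called higher (Kcnmb4) and 2 lower (Kcna4 and Kcnn4), against 1.4% and 1.74% of all genes. Without the library labelled P1 replicate 3, 6 were called higher and 3 lower, against 3.12% and 2.61%. From P7 to P14, 13 were called higher and 3 lower, against 5.81% and 4.51% of all genes, with a median log2 fold change of 0.38 over the 83 genes and -0.005 over all genes. Kcnk12 was the only one of these 16 calls to hold under every alternative: the 12 other higher calls were each lost without P7 replicate 2 and, separately, without P14 replicate 2, with adjusted p up to 0.15. In those fits 0.556% and 0.576% of all genes were called higher. From P1 to P14, 9 were called higher and 5 lower, against 3.63% and 5.31% of all genes. The 9 were Kcnip2, Kcnip3, Kcnj12, Kcnj9, Kcnk1, Kcnk2, Kcnmb1, Kcnmb4 and Kcnn2, and the 5 were Kcna4, Kcnh4, Kcnh5, Kcnn3 and Kcnv1. Without the library labelled P1 replicate 3, 27 of 84 genes were called higher and 7 lower, against 9.54% and 7.96% of all genes, and all 9 and all 5 were among them. Without P1 replicate 1, P1 replicate 2 or any P14 library, none of the 9 was called, with adjusted p up to 0.209, and 0.0129% to 0.297% of all genes were called higher. Kcnj9, for example, gave log2 fold changes of 1.48 to 2.92 over the fits without 1 library. Of the 5 lower calls, Kcnh4 held under every alternative, Kcnv1 was lost without P14 replicate 2, and the other 3 were lost without the same 5 libraries, with adjusted p up to 0.231, where 0.939% to 1.6% of all genes were called lower. The P7 libraries belong to one counting set and the P1 and P14 libraries to the other, so set and age cannot be told apart for comparisons with P7.

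In MB the Kcn genes were lower on balance. Against P14, 10 were called higher and 52 lower, where 22.9% of all genes were called higher and 27.2% lower, and the median log2 fold change was -1.54 over the 83 genes and 0.01 over all genes. Against P7, which shares the MB libraries, 9 were called higher and 42 lower, against 13.7% and 20.7% of all genes, with medians of -1.21 and 0.02. Values of the 3 MB libraries did not overlap those of the 3 P14 libraries in 65 of the 83 genes, 9 of them higher and 56 lower, where 28.7% of all genes tested were higher without overlap and 32.7% lower. The calls lower against P14 held under all 13 alternatives in 47 of 52. Among the higher calls, Kcng2, Kcnh5, Kcnh7, Kcnn4, Kcns2 and Kcnt2 held under all of them. Markers of several cell types moved with this difference: 5 of 5 GABAergic interneuron markers were lower in MB than at P14 (summed level 4.96 to 8.21 against 106 to 164 CPM), as were 5 of 6 Purkinje cell markers (27.1 to 42.6 against 180 to 342 CPM), 7 of 7 endothelial markers (20.6 to 35.3 against 744 to 772 CPM), 7 of 10 oligodendrocyte lineage markers and 5 of 7 astroglial markers. Of the same 10 oligodendrocyte lineage markers, 2 were called higher in MB than at P14. The defining interneuron marker Pax2 was at 0 in 2 of the 3 MB libraries. Of 8 granule lineage markers 5 were lower and 2 higher (summed level 3281 to 4076 against 4736 to 5066 CPM). The 2 higher were Atoh1, which marks the dividing precursors, and Barhl1, which had no called difference among the 4 ages (adjusted p = 0.212). Gabra6 and Cbln3, which mark mature granule neurons, were far lower than the sum shows, with Gabra6 at 1.11, 0.220 and 0.440 CPM in MB against 161, 202 and 164 CPM at P14 (log2 fold change -8.28, SE 1.38, adjusted p = 0.000249) and Cbln3 at 11.503, 3.25 and 3.48 CPM against 261, 259.98 and 243 CPM (log2 fold change -5.40, SE 0.93, adjusted p = 0.000202). The part of these cells and of granule cell maturation in the lower Kcn levels was not tested.

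**Figure D2:**
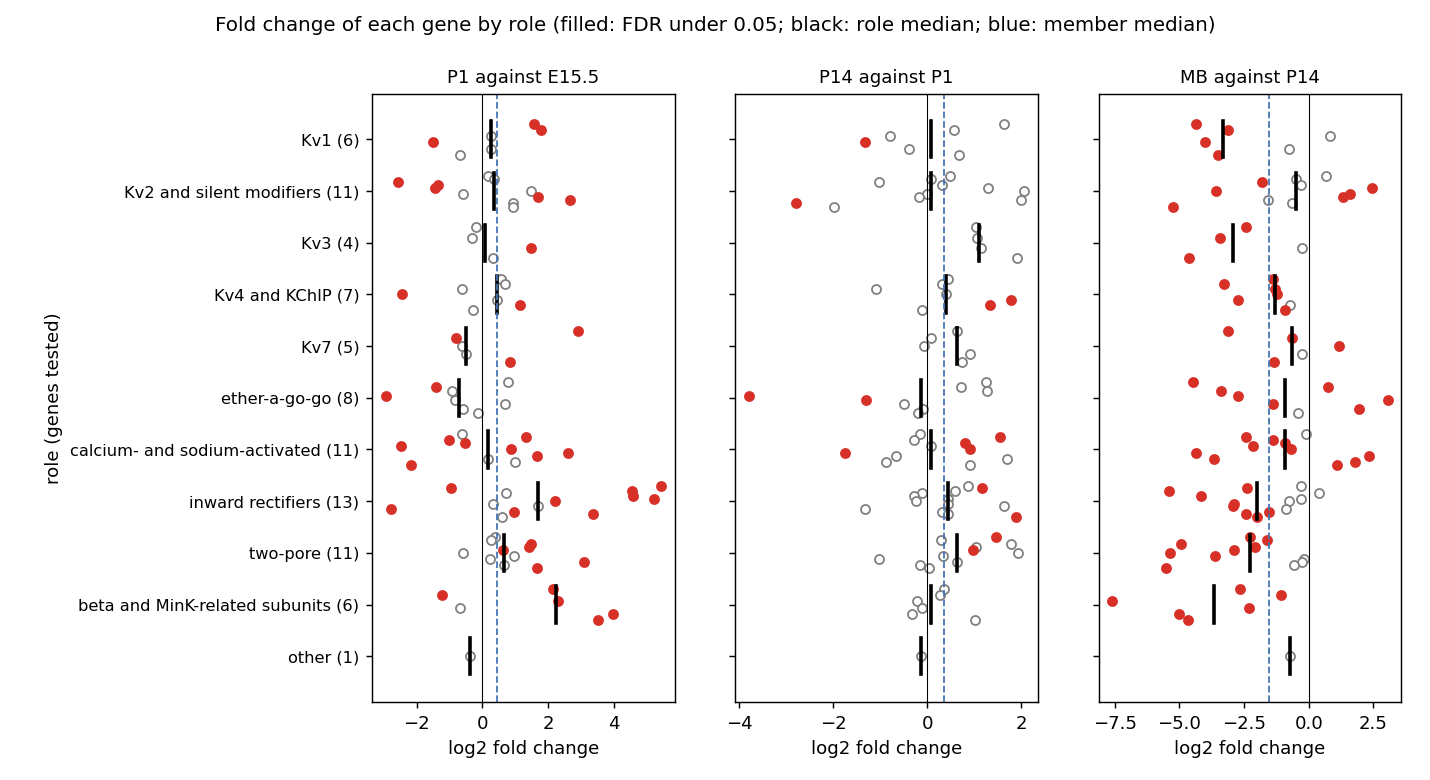
Log2 fold change (x axis) of each tested Kcn gene, by family (y axis, with the number tested), for P1 against E15.5, P14 against P1 and MB against P14. Filled points have an adjusted p under 0.05, black bars are family medians and the dashed line is the median of all 83 genes, which lies at 0.45, 0.36 and -1.54. All family medians are below 0 in MB against P14.

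Promoters of 4 genes that the results below turn on are shown as the 250 bases before the transcription start, from RefSeq on GRCm38.p6, to set 2 genes lower in MB than at P14 (Kcnk12 and Kcnj3) beside 2 that were higher (Kcnh5 and Kcnh7). Each runs 5′ to 3′ on the strand of the gene, with CpG dinucleotides in capitals. The window of Kcnk12 is chr17:87797995-87798244 on the minus strand, that of Kcnj3 chr2:55435720-55435969 on the plus strand, that of Kcnh5 chr12:75177333-75177582 on the minus strand and that of Kcnh7 chr2:63184288-63184537 on the minus strand.
Kcnk12: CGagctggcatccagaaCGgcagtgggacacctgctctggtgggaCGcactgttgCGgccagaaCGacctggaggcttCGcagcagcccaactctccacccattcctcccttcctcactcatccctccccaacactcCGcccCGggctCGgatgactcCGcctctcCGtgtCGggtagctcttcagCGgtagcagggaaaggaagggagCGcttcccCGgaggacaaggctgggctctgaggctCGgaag
Kcnj3: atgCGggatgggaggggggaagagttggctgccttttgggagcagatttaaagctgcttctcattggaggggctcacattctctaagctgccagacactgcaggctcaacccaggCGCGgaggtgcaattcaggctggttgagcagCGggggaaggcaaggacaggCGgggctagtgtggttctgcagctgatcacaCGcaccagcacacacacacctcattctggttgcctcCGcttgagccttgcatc
Kcnh5: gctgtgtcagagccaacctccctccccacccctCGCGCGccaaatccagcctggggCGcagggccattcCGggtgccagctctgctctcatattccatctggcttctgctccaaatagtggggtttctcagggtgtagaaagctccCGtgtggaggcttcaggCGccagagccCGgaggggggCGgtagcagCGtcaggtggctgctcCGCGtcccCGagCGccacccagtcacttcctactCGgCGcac
Kcnh7: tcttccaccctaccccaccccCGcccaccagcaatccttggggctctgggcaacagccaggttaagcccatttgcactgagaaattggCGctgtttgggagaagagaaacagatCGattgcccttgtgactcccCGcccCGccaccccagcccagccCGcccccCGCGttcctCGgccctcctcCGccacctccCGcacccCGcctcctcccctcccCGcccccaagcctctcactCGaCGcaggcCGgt
These windows hold 16 CpG in Kcnk12, 7 in Kcnj3, 16 in Kcnh5 and 16 in Kcnh7. A promoter was in the table for 68 of the 92 genes, and the entry richest in CpG was used where a gene had several. The median was 10 CpG over the 68 and 16 over 11565 tested genes with a promoter, and 15 or more CpG were found in 38.2% and 55.0% respectively. The 68 include 9 genes that failed the filter on low counts, with a median of 5 CpG and 2 of them at 15 or more. The members and the tested genes were thus not filtered alike. Among the 40 members called lower in MB against P14 the median was 9.5 CpG, and among the 6 called higher it was 15. The E-box CAGCTG, a palindrome that reads the same on both strands, was in 10 of these 40 and 1 of these 6, and in 12.1% of the tested genes. The motif GACCACCCA, bound by Gli factors, was on neither strand of any of the 68 windows and in 0.164% of the tested genes. These matches are a description of letters and say nothing of binding.

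The Kv1 family carries low-threshold delayed rectifier currents, with Kcna1 and Kcna2 placed on axons and presynaptic terminals. Kcna1 stood at 15.2, 27.6 and 8.17 CPM in the E15.5 libraries, 13.4, 21.7 and 113 in P1 and 78.7, 74.2 and 62.2 in P7. P14 held 179, 133 and 146 CPM and MB 10.7, 5.52 and 6.04 CPM. All P14 values were above all P1 and P7 values, and within P1 only the library labelled replicate 3 was above the E15.5 range. The difference between E15.5 and P1 was called (log2 fold change 1.56, SE 0.61, adjusted p = 0.0476), a call lost without E15.5 replicates 1 or 3 or P1 replicate 3 (adjusted p up to 0.914), with 0.07 without the last. From P1 to P14 it gave log2 fold change 1.63, SE 0.60, adjusted p = 0.0969, and 3.12 (adjusted p = 0.000504) without the library labelled P1 replicate 3. In MB Kcna1 was lower than at P14 (log2 fold change -4.37, SE 0.68, adjusted p = 8.69e-05). Kcna2 rose from 5.496 ± 3.25 CPM at E15.5 to 18.4 ± 5.41 CPM at P1 (log2 fold change 1.78, SE 0.36, adjusted p = 0.0011, and 1.51 without P1 replicate 3) and reached 27.4 ± 2.98 CPM at P14, with MB at 3.13, 3.05 and 3.20 CPM. Against E15.5 replicate 2 alone, within 1 counting set, the first step was 1.10, which with 1 library in the group was not called. Kcna6 lay at 15.4 ± 4.56 CPM at E15.5 and 15.4 ± 3.27 CPM at P14 without a called step, and fell to 1.31 ± 0.596 CPM in MB (log2 fold change -3.53, SE 0.42, adjusted p = 7.74e-06).

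Not all of the family followed Kcna1. Kcna4, which carries a fast-inactivating A-type current, stood at 13.96, 17.1 and 11.2 CPM in the E15.5 libraries, 5.75, 5.505 and 3.73 in P1 and 1.75, 1.77 and 1.54 in P7. P14 held 2.39, 1.54 and 2.07 CPM and MB 0, 0.147 and 0.200 CPM. Each P1 library was below each E15.5 library, each P7 library was below each P1 library, and MB was lowest. The fall between E15.5 and P1 was log2 fold change -1.49, SE 0.37, adjusted p = 0.00424, and -1.32 without P1 replicate 3, and that between P1 and P7 was log2 fold change -1.56, SE 0.38, adjusted p = 0.0401, and -1.73 without P1 replicate 3, a call lost without P1 replicates 1 or 2 or P7 replicates 1, 2 or 3 (adjusted p up to 0.184). Kcna3, best known from lymphocytes and microglia, ranged from 1.89 to 6.60 CPM over all libraries with no called difference, while the 9 microglial markers summed to 6.10 to 440 CPM. Over the 6 tested genes of the family, 4 were called lower in MB than at P14, where 27.2% of all genes were, with a median log2 fold change of -3.33. The genes of Kcna1, Kcna5 and Kcna6 lie next to each other on chromosome 6 (Kcna1 at chr6:126586481-126595819 of mm9), and Kcna5 stayed at 0.305 to 1.28 CPM in every library.

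Kv2 channels form the main delayed rectifier of neuronal cell bodies, and the silent subunits Kcnf1, Kcng, Kcns and Kcnv only work in pairs with them. Among the silent subunits, Kcnf1 fell between E15.5 and P1, from 9.25, 12.03 and 9.56 CPM to 1.67, 1.40 and 2.15 CPM (log2 fold change -2.56, SE 0.41, adjusted p = 0.000154, and -2.74 without P1 replicate 3). Kcns2 rose over the same step, from 3.40, 4.93 and 2.34 CPM to 12.5, 10.7 and 10.3 CPM (log2 fold change 1.68, SE 0.25, adjusted p = 8.28e-05, and 1.73 without P1 replicate 3), and was higher again in MB, at 23.0, 23.5 and 27.0 CPM (log2 fold change 1.31, SE 0.24, adjusted p = 0.00032 against P14). No MB library overlapped any precursor library in Kcns2. Kcng2 was also higher in MB, at 1.90, 4.42 and 3.76 CPM against 0.607, 0.603 and 0.635 CPM at P14 (log2 fold change 2.45, SE 0.40, adjusted p = 0.00014). Kcnv1 fell from 2.49, 2.83 and 1.51 CPM at P1 to 0.371, 0.181 and 0.435 CPM at P14 (log2 fold change -2.78, SE 0.49, adjusted p = 0.00558, and -3.01 without P1 replicate 3), a call lost without P14 replicate 2 (adjusted p up to 0.0531). Kcng4 had means of 0.487, 1.29, 2.64 and 5.43 CPM at the 4 ages and 0.0793, 0.489 and 0.761 CPM in MB (log2 fold change -3.60, SE 0.78, adjusted p = 0.0013 against P14). Kcnv2 had 50 counts over the P7 libraries, 15 over the P14 libraries and 0 over the MB libraries, at least 15.8-fold lower in MB than at P7 and at least 4.91-fold lower than at P14. Kcns1 was higher in MB than at P14 (log2 fold change 1.61, SE 0.58, adjusted p = 0.0313) at 0.436, 3.44 and 1.08 CPM, a call lost without P14 replicates 1, 2 or 3 or MB replicate 2 (adjusted p up to 0.476), with 0.46 without the last.

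Kv3 channels open at high voltage and close fast, which lets neurons fire at high rates. Kcnc1 stood at 312, 232 and 269 CPM at P14 and 38.2, 53.9 and 58.7 CPM in MB (log2 fold change -2.43, SE 0.44, adjusted p = 0.000319). Kcnc4 stood at 3.10, 4.18 and 2.81 CPM in the E15.5 libraries, 0.987, 2.13 and 9.31 in P1 and 4.59, 2.01 and 2.16 in P7. P14 held 16.9, 15.8 and 14.3 CPM and MB 0.436, 0.806 and 0.600 CPM. All P14 libraries were above all others, and the library labelled P1 replicate 3 was the next highest. The step from P7 to P14 gave log2 fold change 2.42, SE 0.59, adjusted p = 0.0224 and depended on single libraries as given above, and MB against P14 gave log2 fold change -4.64, SE 0.67, adjusted p = 4.7e-05. P14 against P1 gave log2 fold change 1.91, SE 0.58, adjusted p = 0.0518, and 3.32 (adjusted p = 0.000369) without the library labelled P1 replicate 3. Kcnc2 also differed between MB, at 0.0793, 1.25 and 0.961 CPM, and P14, at 8.36, 8.14 and 8.96 CPM (log2 fold change -3.43, SE 0.59, adjusted p = 0.000213, and -4.02 without MB replicate 2).

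Kv4 channels carry the A-type current of granule neurons, and the KChIP proteins (Kcnip) are calcium-binding subunits that bring them to the surface. Kcnd2 stood at 44.8, 64.7 and 24.3 CPM in the E15.5 libraries, 70.8, 49.4 and 92.8 in P1 and 73.97, 82.2 and 75.5 in P7. P14 held 98.4, 78.2 and 89.99 CPM and MB 8.13, 8.35 and 10.7 CPM. Precursor values lay between 24.3 and 98.4 CPM and MB values were all below them (log2 fold change -3.29, SE 0.32, adjusted p = 1.02e-06 against P14 and log2 fold change -3.09, SE 0.31, adjusted p = 2.7e-06 against P7). Kcnd2 was called in the 4-age test (adjusted p = 0.0444) but in none of the single steps. Kcnd3 had lower means at each later age, at 237, 272 and 119 CPM in the E15.5 libraries, 176, 132 and 97.3 in P1 and 105, 129.9 and 124 in P7. P14 held 73.6, 50.2 and 65.6 CPM and MB 41.5, 19.7 and 16.5 CPM. Its P14 values were all below its P1 and P7 values, though P14 against P1 gave log2 fold change -1.10, SE 0.35, adjusted p = 0.0599, and -1.28 (adjusted p = 0.0278) without the library labelled P1 replicate 3. In MB Kcnd3 was lower still (log2 fold change -1.29, SE 0.35, adjusted p = 0.0066 against P14). Kcnd1 was at 7.46 ± 1.36 CPM at P14 and 2.84 ± 0.535 CPM in MB (log2 fold change -1.39, SE 0.35, adjusted p = 0.00388).

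The 4 KChIP genes had different courses. Kcnip1 stood at 30.2, 32.2 and 70.8 CPM in the E15.5 libraries, 5.92, 8.30 and 10.3 in P1 and 25.2, 12.1 and 11.2 in P7. P14 held 9.61, 11.3 and 11.3 CPM and MB 5.51, 4.42 and 3.68 CPM. It fell between E15.5 and P1 with no overlap (log2 fold change -2.44, SE 0.38, adjusted p = 0.000127, and -2.65 without P1 replicate 3) and was lower in MB than at P14 (log2 fold change -1.24, SE 0.37, adjusted p = 0.0115). Kcnip2 stood at 2.05, 1.67 and 1.92 CPM in the E15.5 libraries, 1.12, 1.82 and 4.79 in P1 and 2.13, 1.08 and 1.08 in P7. P14 held 8.33, 9.22 and 9.16 CPM and MB 2.34, 0.733 and 0.961 CPM. The 3 P14 libraries were above all others, with log2 fold change 2.63, SE 0.51, adjusted p = 0.0096 against P7 and log2 fold change 1.78, SE 0.50, adjusted p = 0.0393 against P1. The latter was 2.59 (adjusted p = 0.00272) without the library labelled P1 replicate 3. Each MB library was below each P14 library (log2 fold change -2.74, SE 0.52, adjusted p = 0.000465, and -3.40 without MB replicate 1). Kcnip3, which is also known as a calcium-sensing transcription repressor, stood at 37.8, 25.4 and 30.2 CPM in the E15.5 libraries, 53.0, 47.1 and 107 in P1 and 98.3, 122 and 80.1 in P7. P14 held 156, 185 and 183 CPM and MB 47.3, 129.95 and 136 CPM. It rose between E15.5 and P1 (log2 fold change 1.15, SE 0.36, adjusted p = 0.0171), a call lost without E15.5 replicates 2 or 3 or P1 replicate 3 (adjusted p up to 0.127, with 0.68 without the last), and was at 63.9 ± 5.92 FPKM at P14, second among Kcn genes. MB replicate 1 was below MB replicates 2 and 3, with log2 fold change 0.06, SE 0.35, adjusted p = 0.919 against P7 over all libraries. Within 1 counting set, where MB replicate 1 alone stands for MB, the value was -1.08, which restates the low level of that library and is given with no test. Kcnip4 lay between 8.002 and 12.5 CPM in 11 of 12 precursor libraries and at 7.06, 4.13 and 2.88 CPM in MB (log2 fold change -0.93, SE 0.33, adjusted p = 0.0304), a call lost without P14 replicates 1 or 3 or MB replicates 2 or 3 (adjusted p up to 0.118).

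Kv7 channels carry the M-current, which restrains repeated firing, and Kcnq3 and Kcnq5 are subunits of them in neurons. Kcnq3 was higher in MB than at P14, at 24.8, 15.46 and 15.01 CPM against 11.1, 5.85 and 7.35 CPM (log2 fold change 1.18, SE 0.37, adjusted p = 0.0139), a call lost without P14 replicates 2 or 3 or MB replicate 1 (adjusted p up to 0.0677). Kcnq5 had means of 13.6, 23.9, 52.4 and 39.6 CPM at the 4 ages and 15.4 ± 3.52 CPM in MB (log2 fold change -1.36, SE 0.32, adjusted p = 0.00262 against P14). Kcnq1, the cardiac and epithelial member, rose from 0.523, 0.334 and 0.341 CPM to 2.36, 2.87 and 3.88 CPM between E15.5 and P1 (log2 fold change 2.91, SE 0.36, adjusted p = 1.7e-05, and 2.69 without P1 replicate 3). The library kit named in the labels does not mark strand, so reads of Kcnq1 and of its antisense gene Kcnq1ot1 cannot be told apart.

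Among the ether-a-go-go channels, Kcnh4 fell with age. It stood at 46.5, 50.1 and 30.7 CPM in the E15.5 libraries, 6.99, 7.37 and 2.15 in P1 and 1.90, 1.43 and 2.31 in P7. P14 held 0.573, 0.181 and 0.435 CPM and MB 0.0793, 0.0489 and 0.0400 CPM. Values fell without overlap between E15.5 and P1 (log2 fold change -2.95, SE 0.42, adjusted p = 6.5e-05, and -2.56 without P1 replicate 3) and between P1 and P14 (log2 fold change -3.79, SE 0.48, adjusted p = 0.000765, and -4.18 without P1 replicate 3), and both calls held in every alternative. Only 5 counts of Kcnh4 were seen over the 3 MB libraries, 33.5-fold fewer than at P7 after scaling (exact 95% interval 14.1 to 104, counting error only). Kcnh5, an ether-a-go-go channel whose promoter is shown above, stood at 8.64, 8.77 and 4.33 CPM in the E15.5 libraries, 5.88, 3.92 and 2.45 in P1 and 2.92, 4.25 and 4.39 in P7. P14 held 1.75, 1.12 and 2.11 CPM and MB 12.9, 13.8 and 14.7 CPM. Its group means were lower at each later age, with log2 fold change -1.30, SE 0.36, adjusted p = 0.0404 for P14 against P1 (-1.56 without P1 replicate 3), a call lost without P1 replicates 1 or 2 or P14 replicates 1, 2 or 3 (adjusted p up to 0.231). In MB it was above all 12 precursor libraries (log2 fold change 3.05, SE 0.38, adjusted p = 1.13e-05 against P14 and log2 fold change 1.84, SE 0.36, adjusted p = 0.000913 against P7). Kcnh7, an ERG channel, stood at 25.1, 49.9 and 16.8 CPM in the E15.5 libraries, 20.9, 15.2 and 23.9 in P1 and 23.6, 23.1 and 24.8 in P7. P14 held 22.4, 17.1 and 17.01 CPM and MB 72.6, 65.6 and 76.7 CPM. It had no called change with age (4-age adjusted p = 0.18), and again all MB libraries were above all precursor libraries (log2 fold change 1.93, SE 0.31, adjusted p = 0.000115 against P14). Kcnh2, the ERG channel known from the heart, fell from 47.6, 41.7 and 50.7 CPM at E15.5 to 12.8, 18.2 and 21.7 CPM at P1 (log2 fold change -1.41, SE 0.22, adjusted p = 0.000155, and -1.59 without P1 replicate 3). In MB it was at 35.5, 49.7 and 59.3 CPM (log2 fold change 0.74, SE 0.22, adjusted p = 0.0118 against P14), a call lost without MB replicate 3 (adjusted p up to 0.0626). Kcnh1 went in the other direction in MB, at 0.595, 0.660 and 1.56 CPM against 22.1, 19.7 and 19.8 CPM at P14 (log2 fold change -4.46, SE 0.47, adjusted p = 2.66e-06). Of the 8 tested genes of this family, 3 were called higher and 4 lower in MB than at P14, where 22.9% and 27.2% of all genes were.

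**Figure D3:**
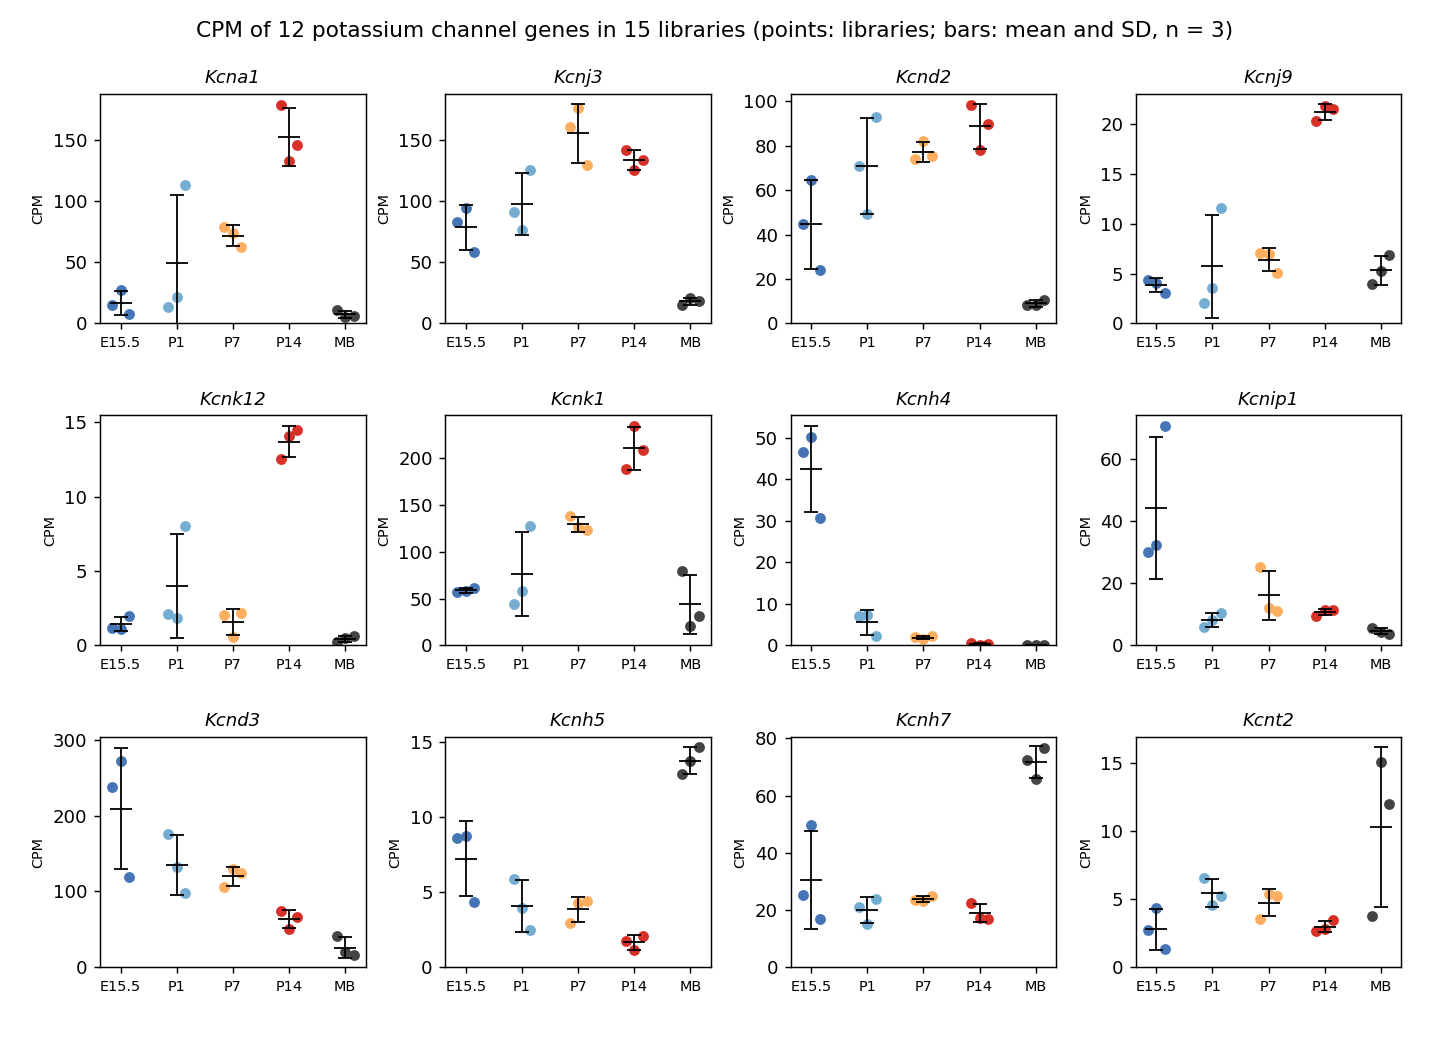
CPM (y axis, from 0) of 12 Kcn genes in each of the 15 libraries (points) by group (x axis), with the group mean and SD (bars, n = 3). Kcnk12 and Kcnj9 are highest in the P14 libraries, Kcnh4 in the E15.5 libraries, and Kcnh5 and Kcnh7 in the MB libraries, at 12.9 to 14.7 CPM and 65.6 to 76.7 CPM.

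Small-conductance calcium-activated channels (Kcnn1 to Kcnn3) produce the pause after an action potential. Kcnn1 stood at 59.6, 37.7 and 53.7 CPM in the E15.5 libraries, 10.2, 7.71 and 9.53 in P1 and 9.91, 8.53 and 12.7 in P7. P14 held 9.17, 10.7 and 8.99 CPM and MB 0.595, 2.05 and 3.84 CPM. It fell without overlap between E15.5 and P1 (log2 fold change -2.46, SE 0.42, adjusted p = 0.000263, and -2.50 without P1 replicate 3), stayed between 7.71 and 12.7 CPM at the later ages, and fell again in MB (log2 fold change -2.15, SE 0.43, adjusted p = 0.00066 against P14, and -2.81 without MB replicate 3). Kcnn3 stood at 2.22, 3.17 and 1.92 CPM in the E15.5 libraries, 15.9, 18.4 and 9.57 in P1 and 8.42, 6.68 and 8.44 in P7. P14 held 5.19, 3.62 and 4.18 CPM and MB 0, 0.391 and 0.160 CPM. It rose from E15.5 to P1 (log2 fold change 2.61, SE 0.47, adjusted p = 0.0004, and 2.84 without P1 replicate 3) and was below every P1 value at P14 (log2 fold change -1.76, SE 0.44, adjusted p = 0.0275, and -1.99 without P1 replicate 3), a call lost without P1 replicates 1 or 2 or P14 replicates 1, 2 or 3 (adjusted p up to 0.144). MB held 0 to 0.391 CPM of Kcnn3 (log2 fold change -4.38, SE 0.56, adjusted p = 1.43e-05 against P14, and -5.68 without MB replicate 2). Kcnn2, the member best known from Purkinje cells and hippocampus, had means of 10.47, 19.2, 21.4 and 36.1 CPM at the 4 ages and 22.1 ± 3.97 CPM in MB (log2 fold change -0.70, SE 0.25, adjusted p = 0.0293 against P14), a call lost without P14 replicates 1 or 2 or MB replicate 3 (adjusted p up to 0.111). Kcnn4, the intermediate-conductance channel of lymphocytes, red cells and microglia, stood at 0.262, 0.167 and 0.394 CPM in the E15.5 libraries, 0.987, 1.12 and 0.716 in P1 and 0.117, 0.0552 and 0.154 in P7. P14 held 0.405, 0.723 and 0.635 CPM and MB 2.10, 4.27 and 2.40 CPM. All MB libraries were above all precursor libraries (log2 fold change 2.31, SE 0.41, adjusted p = 0.000247 against P14). The 9 microglial markers had summed levels of 169 to 440 CPM in MB and 150 to 217 CPM at P14, with 4 called higher and 1 lower, and their part in the Kcnn4 level was not tested. MB replicate 2 had the highest Kcnn4 level and MB replicate 1 the highest microglial sum.

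Kcnma1, the pore of the large-conductance BK channel, ranged from 8.82 to 34.2 CPM with no called difference (log2 fold change -0.12, SE 0.37, adjusted p = 0.806 for MB against P14). Its neuronal beta subunit Kcnmb4 stood at 42.0, 39.9 and 50.3 CPM in the E15.5 libraries, 30.1, 24.9 and 36.9 in P1 and 56.3, 73.8 and 65.2 in P7. P14 held 49.4, 53.9 and 56.7 CPM and MB 22.8, 33.0 and 28.5 CPM. All P7 libraries were above all P1 libraries (log2 fold change 1.09, SE 0.19, adjusted p = 0.014, and 1.24 without P1 replicate 3), a call lost without P1 replicate 2 or P7 replicate 2 (adjusted p up to 0.0998). MB was lower than P7 (log2 fold change -1.21, SE 0.19, adjusted p = 0.000173) and P14 (log2 fold change -0.92, SE 0.19, adjusted p = 0.000952). Kcnmb1, the beta subunit of smooth muscle, was at 0.210 to 0.980 CPM before P7 and 2.06, 1.84 and 1.40 CPM at P14 (log2 fold change 1.55, SE 0.39, adjusted p = 0.0282 against P1, and 2.12 without P1 replicate 3). Kcnmb2 fell between E15.5 and P1 (log2 fold change -1.01, SE 0.33, adjusted p = 0.0202, and -1.15 without P1 replicate 3), a call lost without E15.5 replicate 3 or P1 replicate 2 (adjusted p up to 0.0944). The sodium-activated channel Kcnt1 stood at 19.1, 18.3 and 13.3 CPM in the E15.5 libraries, 6.65, 12.9 and 37.5 in P1 and 12.9, 11.8 and 15.4 in P7. P14 held 63.9, 55.6 and 65.3 CPM and MB 11.1, 1.59 and 1.88 CPM. It was highest in the 3 P14 libraries, with log2 fold change 2.20, SE 0.64, adjusted p = 0.0422 against P7, a call lost without any 1 of the 6 libraries. P14 against P1 gave log2 fold change 1.69, SE 0.63, adjusted p = 0.099, and 2.66 (adjusted p = 0.0129) without the library labelled P1 replicate 3. In MB, replicate 1 was at 11.1 CPM and the others under 2 CPM (log2 fold change -3.67, SE 0.69, adjusted p = 0.000432 against P14, and -5.15 without MB replicate 1). Kcnt2 was higher in MB, at 3.73, 15.1 and 11.97 CPM against 2.66, 2.80 and 3.44 CPM at P14 (log2 fold change 1.79, SE 0.46, adjusted p = 0.00437). Kcnu1, a channel known from sperm, was higher at E15.5 (2.66, 2.59 and 4.07 CPM) than at P1 (0.730, 0.698 and 0.641 CPM, log2 fold change -2.18, SE 0.35, adjusted p = 0.000155, and -2.13 without P1 replicate 3) and was at 1.90, 2.78 and 3.72 CPM in MB (log2 fold change 1.86, SE 0.34, adjusted p = 0.000523 against P7).

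Inward rectifiers of the GIRK group (Kcnj3, Kcnj5, Kcnj6 and Kcnj9) open in response to G protein-coupled receptors. Kcnj3 stood at 82.7, 94.5 and 58.6 CPM in the E15.5 libraries, 91.1, 76.7 and 126 in P1 and 161, 176 and 129 in P7. P14 held 141, 126 and 133 CPM and MB 14.8, 21.0 and 18.3 CPM. Precursor values lay between 58.6 and 176 CPM and MB values between 14.8 and 21.0 CPM (log2 fold change -2.89, SE 0.23, adjusted p = 2.28e-07 against P14 and log2 fold change -3.10, SE 0.23, adjusted p = 1.66e-07 against P7). Kcnj6 was also lower in MB, with 33.7 ± 6.57 CPM against 98.4 ± 22.2 CPM at P14 (log2 fold change -1.54, SE 0.37, adjusted p = 0.00287). Between E15.5 and P1 it was called higher (log2 fold change 0.95, SE 0.37, adjusted p = 0.0455), a call lost without E15.5 replicates 1 or 3 or P1 replicates 1 or 3 (adjusted p up to 0.181), with 0.75 without the last. Kcnj9 stood at 4.36, 4.09 and 3.05 CPM in the E15.5 libraries, 2.02, 3.57 and 11.6 in P1 and 7.10, 6.98 and 5.08 in P7. P14 held 20.3, 21.8 and 21.5 CPM and MB 3.93, 5.25 and 6.84 CPM. The P14 libraries were above all others (log2 fold change 1.88, SE 0.46, adjusted p = 0.0243 against P1), with 2.92 (adjusted p = 0.000116) without the library labelled P1 replicate 3, and MB was at 5.34 ± 1.46 CPM (log2 fold change -1.99, SE 0.46, adjusted p = 0.00222 against P14). Kcnj5 fell from 1.70, 2.00 and 1.08 CPM at E15.5 to 0.0858, 0.388 and 0.188 CPM at P1 (log2 fold change -2.79, SE 0.50, adjusted p = 0.000384, with -2.68 without P1 replicate 3 and -3.45 without P1 replicate 2). Among the other rectifiers, Kcnj2 rose from 3.53, 3.51 and 2.91 CPM to 15.8, 16.2 and 14.3 CPM over the same step (log2 fold change 2.22, SE 0.36, adjusted p = 0.00019, and 2.27 without P1 replicate 3), and Kcnj12 was at 26.2, 26.1 and 22.2 CPM at P14 against 8.56, 7.59 and 8.24 CPM at P7 (log2 fold change 1.61, SE 0.31, adjusted p = 0.00956) and 3.65, 3.42 and 7.08 CPM in MB (log2 fold change -2.40, SE 0.32, adjusted p = 2.3e-05 against P14). Kcnj15 had 3 counts over the E15.5 libraries and 82 over the P1 libraries, a 26.4-fold difference after scaling (exact 95% interval 8.71 to 131), and 4 over the MB libraries.

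Several inward rectifiers are known from glia, blood vessels and choroid plexus. Kcnj10, the potassium-buffering channel of astroglia and oligodendrocytes, stood at 1.57, 1.09 and 2.65 CPM in the E15.5 libraries, 50.9, 62.7 and 128 in P1 and 134, 80.3 and 59.6 in P7. P14 held 186, 131 and 125 CPM and MB 146, 106 and 106 CPM. The E15.5 libraries were all at 2.65 CPM or less and every other library was at 50.9 CPM or more (log2 fold change 5.43, SE 0.45, adjusted p = 6e-07 for P1 against E15.5, and 4.92 without P1 replicate 3). Over the same step 7 of 7 astroglial markers rose, from a summed level of 363 to 487 CPM at E15.5 to 2907 to 4310 CPM at P1. In MB the astroglial sum was 1435 to 1954 CPM, 5 of 7 markers were lower than at P14 (3669 to 4872 CPM), and Kcnj10 gave log2 fold change -0.30, SE 0.36, adjusted p = 0.506. Kcnj16, its partner subunit, went from 0.393, 0.251 and 0.368 CPM at E15.5 to 10.8, 12.8 and 16.0 CPM at P1 (log2 fold change 5.22, SE 0.32, adjusted p = 8.69e-08, and 5.06 without P1 replicate 3) and 13.9, 15.46 and 14.4 CPM in MB (log2 fold change -0.30, SE 0.24, adjusted p = 0.305 against P14). Kcnj10 and Kcnj9 are neighbours on chromosome 1 (chr1:174271341-174304216 and chr1:174251164-174259394 of mm9, on opposite strands), and Kcnj9 gave log2 fold change 0.59, SE 0.46, adjusted p = 0.311 over the step in which Kcnj10 rose, and -0.45 (adjusted p = 0.288) without P1 replicate 3. The part of astroglia in the Kcnj10 and Kcnj16 levels was not tested.

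Kcnj8, which forms ATP-sensitive channels with Abcc9 in pericytes and smooth muscle, stood at 0.436, 0.501 and 3.73 CPM in the E15.5 libraries, 13.7, 20.7 and 18.05 in P1 and 8.71, 13.02 and 8.20 in P7. P14 held 20.5, 27.4 and 23.1 CPM and MB 7.62, 2.86 and 2.72 CPM. It rose between E15.5 and P1 (log2 fold change 3.37, SE 0.63, adjusted p = 0.000564, with 3.34 without P1 replicate 3 and 5.18 without E15.5 replicate 3), as did 4 of 4 pericyte markers (summed level 12.9 to 34.2 against 237 to 553 CPM), and fell in MB against P14 (log2 fold change -2.43, SE 0.59, adjusted p = 0.00312, and -3.08 without MB replicate 1), where 4 of 4 pericyte markers were lower (16.5 to 19.9 against 728 to 853 CPM). Kcnj13 and Kcne2, known from choroid plexus, differed widely between libraries of 1 group. Kcnj13 stood at 0.654, 2.00 and 0.236 CPM in the E15.5 libraries, 2.15, 36.4 and 20.3 in P1 and 0.380, 3.45 and 9.94 in P7. P14 held 27.5, 38.0 and 23.1 CPM and MB 0.476, 0.977 and 0.560 CPM. Kcne2 stood at 0.305, 7.02 and 0.341 CPM in the E15.5 libraries, 2.88, 81.6 and 22.3 in P1 and 0.205, 3.12 and 7.01 in P7. P14 held 26.5, 36.2 and 22.9 CPM and MB 1.39, 0.879 and 0.400 CPM. Both were over 20 CPM in P1 replicates 2 and 3 and in the P14 libraries, and at most 9.94 and 7.02 CPM respectively in every other precursor and tumour library. The 5 choroid plexus markers summed to 388, 11146 and 5064 CPM in P1 replicates 1 to 3 and to 6626 to 10701 CPM at P14. Sums were 134 to 2326 CPM in P7, 58.6 to 322 CPM in the E15.5 libraries and 58.2 to 273 CPM in MB. Kcnj13 was called higher at P1 than at E15.5 (log2 fold change 4.55, SE 1.09, adjusted p = 0.00345) and lower in MB than at P14 (log2 fold change -5.42, SE 1.10, adjusted p = 0.000815), and Kcne2 likewise (log2 fold change 3.97, SE 1.29, adjusted p = 0.0206 and log2 fold change -4.998, SE 1.35, adjusted p = 0.00627). Without P1 replicate 3 the first differences were 4.53 and 4.22. That of Kcnj13 was 5.53, 3.92 and 3.74 without E15.5 replicate 2, E15.5 replicate 3 and P1 replicate 2, all called. Against E15.5 replicate 2 alone, the E15.5 library highest in Kcnj13, it was 3.29 within 1 counting set, which with 1 library in the group was not called. The call of Kcne2 between E15.5 and P1 was lost without E15.5 replicate 1, E15.5 replicate 3 or P1 replicate 2, with adjusted p up to 0.133 and 2.45 without the last, and the difference was 6.75 without E15.5 replicate 2. The part of pericytes and choroid plexus cells in these levels was not tested.

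**Figure D4:**
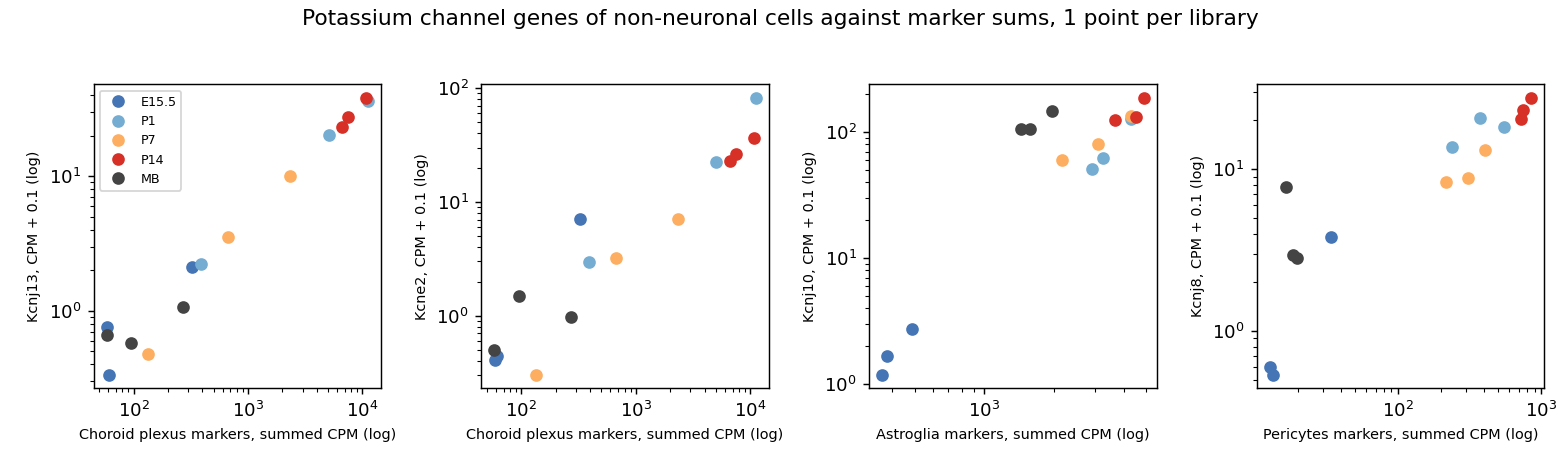
CPM + 0.1 of Kcnj13, Kcne2, Kcnj10 and Kcnj8 (y axes, log scale) against the summed CPM of markers of choroid plexus, astroglia or pericytes (x axes, log scale), 1 point per library, coloured by group. In the Kcnj13 panel P1 replicate 1 lies at 2.15 CPM and P1 replicate 2 at 36.4 CPM, with choroid plexus sums of 388 and 11146 CPM.

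Two-pore channels carry the leak current that sets the resting potential. Kcnk1 had the highest mean level per transcript length of all Kcn genes at P14, at 91.4 ± 9.99 FPKM, and stood at 56.6, 58.3 and 61.2 CPM in the E15.5 libraries, 43.7, 58.2 and 127 in P1 and 139, 126 and 123 in P7. P14 held 189, 234 and 208 CPM and MB 79.9, 20.8 and 30.9 CPM. It was higher at P14 than at P1 (log2 fold change 1.46, SE 0.42, adjusted p = 0.0419), with 2.04 (adjusted p = 0.00405) without the library labelled P1 replicate 3, and lower in MB than at P14 (log2 fold change -2.26, SE 0.43, adjusted p = 0.000449, and -3.03 without MB replicate 1). Kcnk2, a channel opened by stretch and lipids, stood at 30.4, 31.7 and 29.1 CPM in the E15.5 libraries, 40.6, 32.9 and 68.5 in P1 and 70.1, 65.0 and 94.6 in P7. P14 held 95.6, 93.2 and 89.2 CPM and MB 9.996, 12.2 and 15.1 CPM. Its MB values were below all precursor values (log2 fold change -2.90, SE 0.26, adjusted p = 5.45e-07 against P14 and log2 fold change -2.62, SE 0.26, adjusted p = 1.93e-06 against P7), and P14 against P1 gave log2 fold change 0.97, SE 0.24, adjusted p = 0.0261, and 1.33 without P1 replicate 3. Kcnk10, its close relative, lay between 16.6 and 35.7 CPM in precursors and between 7.85 and 9.57 CPM in MB (log2 fold change -1.61, SE 0.20, adjusted p = 1.01e-05 against P14).

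The acid-sensitive channels Kcnk3 and Kcnk9 carry the standing leak current of mature granule neurons. Kcnk9 stood at 12.6, 18.5 and 3.91 CPM in the E15.5 libraries, 38.0, 34.2 and 36.7 in P1 and 24.2, 14.2 and 28.9 in P7. P14 held 43.1, 28.9 and 40.5 CPM and MB 1.43, 0.220 and 0.921 CPM. It rose between E15.5 and P1 (log2 fold change 1.65, SE 0.51, adjusted p = 0.0153), a call lost without E15.5 replicate 3 (adjusted p up to 0.0565), and gave 1.65 without P1 replicate 3. In MB it was at most 1.43 CPM, with log2 fold change -5.51, SE 0.62, adjusted p = 4.94e-06 against P14 (-6.15 without MB replicate 1). Kcnk3 stood at 13.8, 15.53 and 11.2 CPM in the E15.5 libraries, 2.02, 3.72 and 21.3 in P1 and 4.47, 3.50 and 6.86 in P7. P14 held 35.4, 32.2 and 35.8 CPM and MB 0.516, 1.05 and 0.921 CPM. The P14 libraries were above all others, the library labelled P1 replicate 3 was next, and the other P1 libraries and P7 were below E15.5. The step from P7 to P14 gave log2 fold change 2.81, SE 0.62, adjusted p = 0.0153, a call lost without P7 replicate 2 or P14 replicate 2. P14 against P1 gave log2 fold change 1.94, SE 0.60, adjusted p = 0.0562, and 3.58 (adjusted p = 7.27e-05) without the library labelled P1 replicate 3. MB against P14 gave log2 fold change -5.35, SE 0.72, adjusted p = 2.34e-05. Kcnk12, whose promoter is shown above, belongs to the halothane-inhibited channels with Kcnk13 and stood at 1.18, 1.09 and 1.94 CPM in the E15.5 libraries, 2.10, 1.82 and 7.99 in P1 and 2.02, 0.579 and 2.16 in P7. P14 held 12.5, 14.1 and 14.5 CPM and MB 0.238, 0.489 and 0.600 CPM. The 3 P14 libraries were above all others, and P14 against P7 (log2 fold change 3.12, SE 0.57, adjusted p = 0.00879) was called under all 12 alternatives. P14 against P1 gave log2 fold change 1.78, SE 0.54, adjusted p = 0.0521, and 2.80 (adjusted p = 0.00202) without the library labelled P1 replicate 3. MB against P14 gave log2 fold change -4.93, SE 0.64, adjusted p = 1.86e-05. Kcnk13 was at 4.69, 6.15 and 5.92 CPM at P14 and 1.55, 1.34 and 1.04 CPM in MB (log2 fold change -2.09, SE 0.36, adjusted p = 0.00021). At P14 the oligodendrocyte, astroglial, endothelial, pericyte and choroid plexus marker sums were also at their highest medians. The mature granule neuron markers Gabra6 and Cbln3 were highest in the P14 libraries too, with the library labelled P1 replicate 3 next: Gabra6 was at 1.12, 12.5 and 102 CPM in P1 and 2.54 to 10.3 CPM in P7, and Cbln3 at 5.45, 21.6 and 159 CPM in P1 and 9.01 to 15.1 CPM in P7. The part of these cells and of maturation in the P14 levels of the channels was not tested. Kcnk6 rose from at most 0.218 CPM at E15.5 to 0.944, 1.55 and 1.58 CPM at P1 (log2 fold change 3.08, SE 0.65, adjusted p = 0.00144, and 2.96 without P1 replicate 3) and gave log2 fold change -0.25, SE 0.51, adjusted p = 0.71 for MB against P14. Of 11 tested two-pore genes, 8 were called lower in MB than at P14, where 27.2% of all genes were, and all 11 had a negative log2 fold change.

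The auxiliary subunits outside the families above were called lower in MB than at P14 in 6 of 6 tested genes, where 27.2% of all genes were. Kcnab1, a beta subunit that inactivates Kv1 channels, stood at 4.01, 4.09 and 3.62 CPM in the E15.5 libraries, 15.49, 16.7 and 20.2 in P1 and 20.1, 17.5 and 14.02 in P7. P14 held 22.1, 19.9 and 25.3 CPM and MB 4.80, 2.74 and 3.08 CPM. It rose between E15.5 and P1 without overlap (log2 fold change 2.16, SE 0.25, adjusted p = 9.14e-06, and 2.04 without P1 replicate 3) and MB values overlapped those of E15.5 (log2 fold change -2.67, SE 0.25, adjusted p = 8.3e-07 against P14). Kcnab3 fell over the same first step, from 12.7, 12.2 and 11.9 CPM to 5.11, 4.73 and 5.95 CPM (log2 fold change -1.22, SE 0.25, adjusted p = 0.00131, and -1.32 without P1 replicate 3), and was at 3.85, 3.15 and 2.12 CPM in MB (log2 fold change -1.07, SE 0.26, adjusted p = 0.00279 against P14). Kcne1l, also named Kcne5, had the highest level per transcript length of all Kcn genes at E15.5 (48.4 ± 17.2 FPKM) and was at 3.53, 12.6 and 10.01 CPM in MB against 39.5, 46.9 and 43.5 CPM at P14 (log2 fold change -2.31, SE 0.36, adjusted p = 8.25e-05). Kcne1 had 165 counts over the P7 libraries, 78 over the P14 libraries and 0 over the MB libraries, at least 52.0-fold lower in MB than at P7 and at least 25.5-fold lower than at P14. Kcne4 rose from 0.0436, 0.167 and 0.368 CPM at E15.5 to 1.24, 2.48 and 3.73 CPM at P1 (log2 fold change 3.51, SE 0.70, adjusted p = 0.000897, with 3.10 without P1 replicate 3 and 4.68 without E15.5 replicate 3) and was at 0.119, 0.342 and 0.0801 CPM in MB. Kcnrg passed in no comparison.

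Of 17 genes whose products bind potassium channels or carry related currents, 16 were tested. In MB against P14, 13 were called lower and 1 higher, with a median log2 fold change of -2.37, where 27.2% of all genes were called lower and 22.9% higher. Against P7, 9 were called lower and 2 higher, where 20.7% and 13.7% of all genes were. Dpp6 and Dpp10, subunits of Kv4 channels, were lower with Kcnd2 and Kcnd3 (Dpp6 at 26.2, 31.2 and 27.1 CPM in MB and 155, 119 and 138 CPM at P14, log2 fold change -2.28, SE 0.20, adjusted p = 4.81e-07). Amigo1, a subunit of Kv2 channels, was higher in MB (64.7, 67.7 and 67.3 CPM against 41.1, 43.6 and 42.3 CPM, log2 fold change 0.65, SE 0.16, adjusted p = 0.00305). Hcn2, a channel of the hyperpolarization-activated current, gave log2 fold change -0.03, SE 0.38, adjusted p = 0.96. Between E15.5 and P1, 4 of the 16 were called higher (Abcc8, Abcc9, Adam22 and Lrrc38) and 6 lower (Amigo1, Cntnap2, Dpp10, Dpp6, Hcn3 and Hcn4), where 25.4% and 20.9% of all genes were. From P1 to P14, 1 of the 16 was called (Hcn2, higher), where 3.63% of all genes were called higher.

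By level per transcript length, the leading Kcn genes changed between groups. Kcne1l was highest at E15.5, where Kcnd3 stood at 29.2 ± 11.2 FPKM, and Kcnk1 was highest at P14, followed by Kcnip3. In MB, Kcnip3 stood at 38.2 ± 18.1 FPKM and Kcnj10 at 22.1 ± 4.28 FPKM, values that differed by less than the SD of Kcnip3. At least 10 CPM was reached by the group mean of 33 Kcn genes in the E15.5 libraries, 33 in P1, 30 in P7, 39 in P14 and 24 in MB. The shares of all genes that reached this level were not counted.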

How the data were processed

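RNA-seq of 15 libraries was analysed from the read counts per gene that the authors deposited. Per the submitters' processing notes, Trimmomatic, TopHat, StringTie and HTSeq were used with build mm9, without versions. The members and lists were chosen with earlier results of these data known. Genes were matched to symbols by Ensembl identifier, and Kcnab2 and Kcnj11 had no matched identifier. Counts were fitted with edgeR 4.0.16 in R 4.3.3: filterByExpr (minimum count 10, minimum total 15), TMM scaling, 1 mean per group over all 15 libraries (10 residual degrees of freedom), quasi-likelihood tests and Benjamini-Hochberg adjustment over all 15259 genes. SE is the size of the log2 fold change divided by the square root of F. The filter and test were tested on simulated data. Count ratios have exact 95% intervals, and floors use 3 counts over a group; both cover counting error only. FPKM used exonic lengths of mm9 models. Values described were those of 41 genes on a fixed list and, per comparison and direction, up to 8 called genes with the largest fold changes and a mean of at least 1 CPM. Kcna5, Kcnc2, Kcnd1, Kcne1, Kcne1l, Kcng4, Kcnj15, Kcnj2, Kcnj4, Kcnj5, Kcnmb1, Kcnmb2, Kcnn4, Kcnrg, Kcns1 and Kcnv2 fall outside that rule and were chosen after their values were seen. Alternatives were DESeq2 1.42.0, other filters and scaling, the authors' deposited transcript counts, each comparison's groups alone, a replicate block and each library left out; 1 counting set alone was chosen after seeing the data. Promoters came from a RefSeq table on GRCm38.p6. A few genes of the lists are not reported here.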

Additional observations from a re-analysis of the deposited data

How the results depend on the processing

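Counts of called Kcn genes against P7 and P14 in MB, and over the 4 ages, stayed within 1.5 times under every alternative, with 7 to 11 higher and 34 to 44 lower against P7, 8 to 12 higher and 48 to 54 lower against P14, and 52 to 64 over the ages. Apart from the fits within 1 counting set, 9.27% to 15.6% of all genes were called higher and 15.8% to 22.1% lower against P7. Against P14 the shares were 17.8% to 23.9% and 22.4% to 27.9%, and over the ages 44.4% to 65%. Steps between ages moved more. With 1 library left out, P1 against E15.5 gave 17 to 28 higher and 9 to 17 lower, P7 against P1 0 to 6 higher and 0 to 3 lower, P14 against P7 1 to 9 higher and 0 to 2 lower, and P14 against P1 0 to 27 higher and 1 to 7 lower. The calls over all genes moved as well. For P1 against E15.5 they were 20.8% to 23.8% higher and 15.4% to 20.7% lower, and for P7 against P1 0.00646% to 3.12% and 0.0517% to 2.61%. For P14 against P7 they were 0.556% to 3.28% and 0.233% to 3.68%, and for P14 against P1 0.0129% to 9.54% and 0.939% to 7.96%. Fitted to the groups compared alone, P14 against P7 gave 28 higher and 5 lower (15.2% and 10.7% of all genes) and P14 against P1 19 higher and 9 lower (12.9% and 14.6%). DESeq2 gave 3 higher and 7 lower for P7 against P1 (3.31% and 4.62% of all genes) and 17 higher for P14 against P1 (8.04%). The fit within 1 counting set, chosen after seeing the data, split the E15.5 and MB groups by set. For P14 against P1 it gave 21 higher and 9 lower (9.65% and 9.61% of all genes). The P1 and P14 libraries all belong to the same set, so that comparison used the same libraries as the main fit. Only the estimate of the spread differed. In the split fit, with MB replicate 1 alone for MB, Kcnip3 in MB against P7 went from 0.06 to -1.08 on the log2 scale, the level of that library. Same-numbered libraries deviated together in 7 of 30 pairs (r over 0.1, range -0.312 to 0.332). Libraries of different number were not compared in this way, so whether the numbers pair some samples cannot be told. The main fit did not use them as pairs. With a replicate block, 1 gene was lower for P7 against P1, and the other counts were 25 and 15 (P1 against E15.5, higher and lower), 1 higher (P7 against P1), 13 and 2 (P14 against P7), 12 and 4 (P14 against P1), 9 and 53 (MB against P14), 8 and 41 (MB against P7) and 55 (ages). In the same order, the shares of all genes were 0.924%, 24.5% and 19.7%, 0.701%, 4.66% and 3.43%, 3.89% and 4.59%, 21.2% and 26.8%, 12.1% and 20.3%, and 52.5%. Over single genes named and alternatives, the side of the threshold held in 3187 results, and the call was lost in 222 and gained in 86. In 1 the direction reversed with a call in at least 1 of the fits compared. Changes of direction with no call in either fit, as for Kcnj9 in P1 against E15.5, are counted among the 3187. Genes under about 1 CPM rest on few counts.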
